A study of Homo sapiens with 4 samples.

Results

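The 10 genes described here are 3 ligands of the bone morphogenetic protein (BMP) pathway (BMP2, BMP4 and BMP7), 3 antagonists (GREM1, BAMBI and SMAD6) and the 4 ID genes (ID1 to ID4), which BMP signalling switches on. They were taken by gene symbol from a table of 15942 genes, and all 10 had a row and passed the filter on low counts, which left 15557 genes to test. BMPs are secreted proteins that bind paired receptor kinases, and the receptors phosphorylate SMAD1, SMAD5 and SMAD9, which enter the nucleus with SMAD4. ID genes are among the most direct targets of these SMADs, and the ID proteins hold E proteins such as TCF3 away from DNA. In human embryonic stem cells, sustained BMP signalling is known to drive cells out of the pluripotent state, so ID transcripts are often read as a measure of signalling.

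RNA was sequenced from H9, a widely used line of human embryonic stem cells, grown on Matrigel in E8 medium. The siUPF1 group had 2 libraries from cells given small interfering RNA (siRNA) against UPF1, the RNA helicase needed for nonsense-mediated mRNA decay (NMD), and the siLuc group had 2 libraries from cells given siRNA against luciferase, for which these cells hold no target. The series asks how gene expression in these cells differs when UPF1 is lost. A treatment note common to both groups also mentions an actinomycin D chase and siRNA against UPF3A. It ties neither of them, nor any time, to a library, so the libraries were grouped by the siRNA in their own labels. All libraries come from 1 cell line, and whether libraries with the same siRNA were grown as separate cultures is not stated, so each p-value covers the spread between these libraries alone, which may be technical.

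Counts totalled 10058515 and 11200973 in siUPF1 replicates 1 and 2, against 8887239 and 9937231 in the siLuc libraries, here called control a and control b because the table heads both columns alike. UPF1 itself stood at 60.8 and 78.2 CPM (counts scaled to library size, with TMM factors between libraries) in the siUPF1 libraries, against 219 and 205 CPM in the siLuc libraries, so that 32.8% of the siLuc mean remained. All 8 pluripotency markers of a list (POU5F1, SOX2, NANOG and others) were measured, and together they summed to between 1631 and 1763 CPM in siUPF1 libraries and between 1863 and 1993 CPM in siLuc libraries, 5 of them having fallen. In bulk RNA, fewer cells of a type and less RNA per cell cannot be told apart.

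Of the 10 genes, 4 rose (GREM1, BMP4, BMP2 and ID4), 1 fell (ID1) and 5 did not pass. A call here means an adjusted p under 0.05 in edgeR's two-sided quasi-likelihood test, with the Benjamini-Hochberg adjustment made over all 15557 genes. Among all genes tested, 16.8% rose and 9.14% fell by the same rule. DESeq2 called the same 4 risers but not the fall of ID1, where it called 8.19% of all genes up and 2.99% down. The 10 genes and the wider list below were chosen with earlier results of these data known. Setting their counts beside these shares is therefore a description and not a test. The median log2 fold change of the 10 was 0.03, beside -0.01 for all genes tested. The groups did not overlap for 7 of the 10 genes, of which 4 were higher and 3 lower with siUPF1, but with 2 libraries a group 32.3% of all genes lay wholly higher and 31.1% wholly lower, so such a separation says little by itself.

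**Figure D1:**
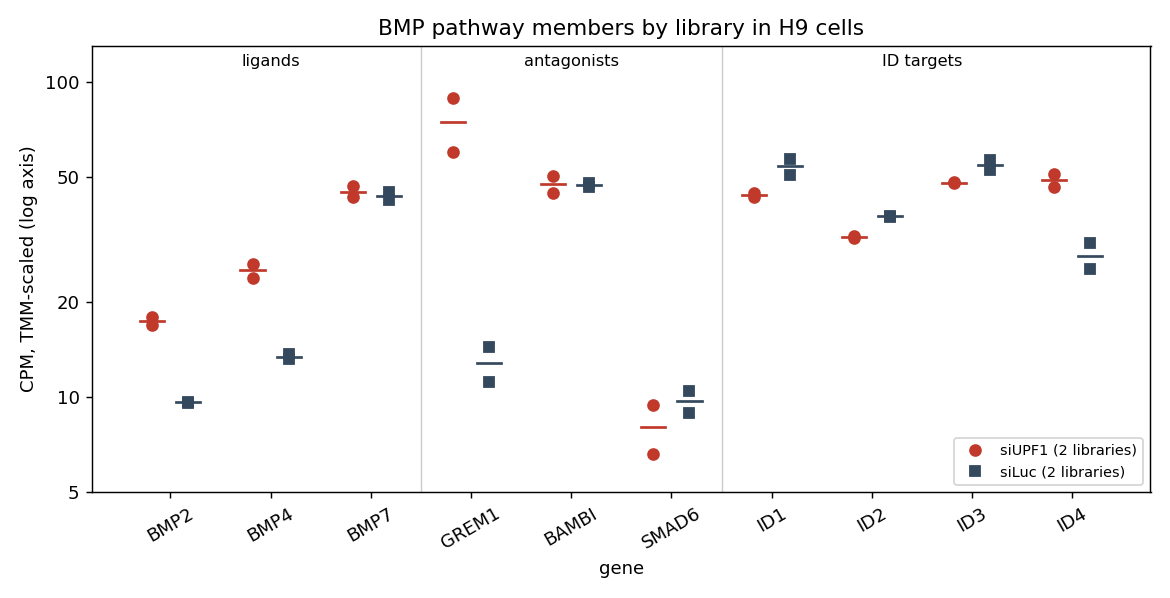
CPM of each of the 10 genes (log axis) in the 2 siUPF1 libraries (circles) and the 2 siLuc libraries (squares), with a line at each group mean. GREM1, BMP4, BMP2 and ID4 lie higher in both siUPF1 libraries, ID1, ID2 and ID3 lower, and BMP7, BAMBI and SMAD6 overlap between the groups.

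BMP2 and BMP4, closely related ligands that signal strongly through the same receptors, both rose, and BMP7, a ligand of another subfamily, was not called. BMP4 stood at 26.5 and 24.0 CPM in siUPF1 libraries, against 13.2 and 13.7 CPM in siLuc libraries (raw counts 265 and 269 against 117 and 137). Every siUPF1 value of BMP4 was above every siLuc value, and the fold change was 1.87 (log2 fold change 0.90, SE 0.14, edgeR adjusted p = 2.37e-09). BMP2 stood at 17.9 and 16.9 CPM in siUPF1 libraries and at 9.62 and 9.68 CPM in siLuc libraries. The BMP2 groups did not overlap either, with a log2 fold change of 0.85 (SE 0.16, edgeR adjusted p = 2.30e-06), close to that of BMP4. BMP7 had 43.0 and 46.8 CPM in siUPF1 libraries, against 42.1 and 44.8 CPM in siLuc libraries, and these values overlapped. The log2 fold change of BMP7 was 0.05 with a 95% interval of -0.13 to 0.23 (edgeR adjusted p = 0.740). The upper bound of that interval lies below the lower bounds for BMP2 (0.53) and BMP4 (0.63).

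Since a long transcript gives more reads than a short one, levels of different genes were compared per kilobase of transcript. In siUPF1 libraries BMP4 averaged 14.5 ± 1.03 CPM per kb (SD, n = 2) and BMP7 11.2 ± 0.658 CPM per kb (SD, n = 2). In siLuc libraries BMP4 averaged 7.73 ± 0.175 and BMP7 10.8 ± 0.481 CPM per kb (SD, n = 2 each), so BMP7 was the most abundant of the 3 ligands with siLuc and BMP4 with siUPF1. BMP2 was lowest of the 3 in both groups, at 5.55 ± 0.221 CPM per kb with siUPF1 and 3.07 ± 0.0134 CPM per kb with siLuc (SD, n = 2 each). The summed level of the 3 ligands was 31.6 and 30.8 CPM per kb in siUPF1 libraries and 21.1 and 22.1 CPM per kb in siLuc libraries, a ratio of 1.44. BMP2 and BMP4 together made up 66.2% and 62.2% of that sum in siUPF1 libraries and 50.5% and 49.5% in siLuc libraries. An exact two-sided permutation test of 2 libraries against 2 cannot give a p below 0.333, and it gave 0.333 for the summed level.

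The antagonists act at 3 points of the pathway. GREM1 (gremlin 1) is secreted and binds BMP2 and BMP4 outside the cell, BAMBI is a membrane pseudoreceptor without a kinase, and SMAD6 is an inhibitory SMAD inside the cell. GREM1 showed the largest change of the 10 genes, at 88.8 and 60.1 CPM in siUPF1 libraries, against 11.2 and 14.5 CPM in siLuc libraries (raw counts 888 and 675 against 99 and 145). All siUPF1 values of GREM1 exceeded all siLuc values, although siUPF1 replicate 1 was 1.48 times replicate 2. The fold change was 5.74 (log2 fold change 2.52, SE 0.11, edgeR adjusted p = 9.34e-120), and it ranged from 2.22 to 2.78 on the log2 scale over 12 alternative settings. The size of that p rests on a spread shared by all genes, since the fit gave no weight to GREM1's own spread, and DESeq2 gave 2.84e-11.

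BAMBI was at 50.4 and 44.5 CPM in siUPF1 libraries and at 47.6 and 46.5 CPM in siLuc libraries. The BAMBI groups overlapped, with a log2 fold change of 0.01 and a 95% interval of -0.16 to 0.19 (edgeR adjusted p = 0.944). SMAD6 was at 6.60 and 9.44 CPM in siUPF1 libraries and at 8.94 and 10.5 CPM in siLuc libraries, with a log2 fold change of -0.27 and a 95% interval of -0.64 to 0.10 (edgeR adjusted p = 0.299). The 2 siUPF1 libraries disagreed on SMAD6, replicate 1 lying below both siLuc libraries and replicate 2 between them. Without siUPF1 replicate 2 it stood at -0.56 and passed (edgeR adjusted p = 0.0444), and without siUPF1 replicate 1 it stood at -0.05 (edgeR adjusted p = 0.887). BAMBI and SMAD6 are themselves known to be induced by BMP signalling as feedback inhibitors, so they stand beside the ID genes as targets too.

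BMP2 and BMP4 are the ligands that GREM1 is best known to bind. Per kilobase, with the length of 4047 nt behind its deposited values, GREM1 lay above both ligands in both siUPF1 libraries. In both siLuc libraries it lay below BMP4. GREM1 averaged 18.4 ± 5.01 CPM per kb with siUPF1 and 3.17 ± 0.571 CPM per kb with siLuc (SD, n = 2 each). The ratio of GREM1 to BMP4 was 1.44 and 1.08 in siUPF1 libraries and 0.364 and 0.455 in siLuc libraries. The ratio of GREM1 to the 3 ligands summed was 0.694 and 0.482 in siUPF1 libraries and 0.131 and 0.162 in siLuc libraries, 4.02 times higher with siUPF1 (exact two-sided permutation p = 0.333, the smallest that 2 against 2 allows). These are ratios of transcripts, and no protein was measured. The GENCODE models matched to GREM1 have 2648 and 14606 nt. With the longer of these, the GREM1 levels and ratios would be lower, and the order of GREM1 and BMP4 with siUPF1 could change. The change of the ratio between the groups does not depend on the GREM1 length if that length is the same in both groups, which was not tested. GREM1 is also a known product of fibroblasts. The 3 fibroblast markers tested (COL1A1, COL1A2 and THY1, of a list of 6) summed to between 486 and 511 CPM in siUPF1 libraries. In siLuc libraries their sum was between 485 and 510 CPM, and none of the 3 was called. The part of any fibroblast-like cells in the change of GREM1 was not tested.

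**Figure D2:**
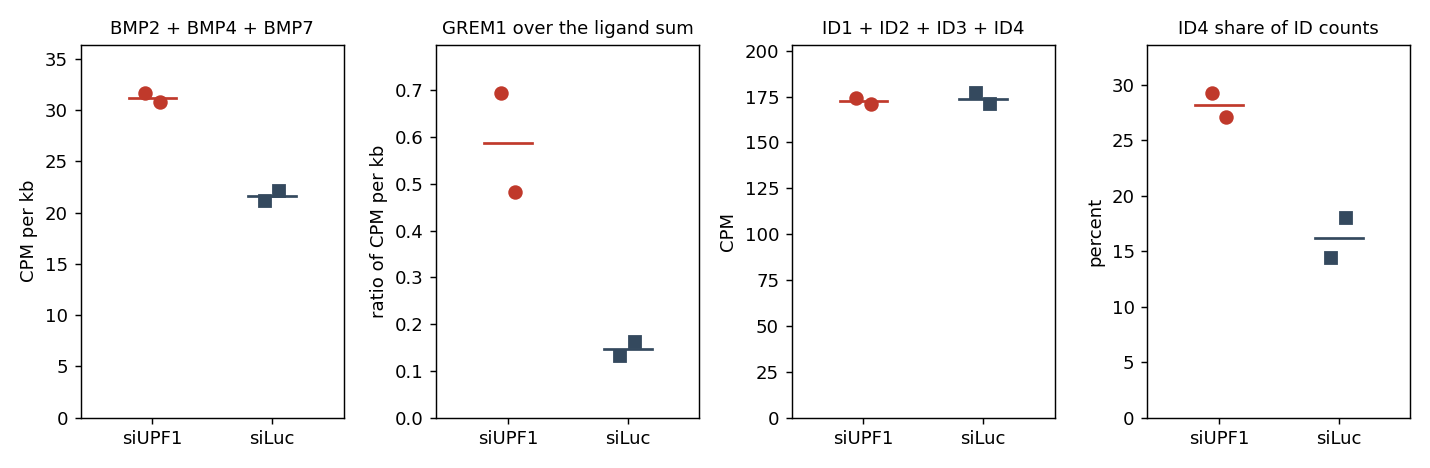
From left to right, the summed CPM per kb of BMP2, BMP4 and BMP7, the ratio of GREM1 to that sum, the summed CPM of ID1, ID2, ID3 and ID4, and the share of ID4 in all ID counts in percent. Points are libraries (siUPF1 left, siLuc right) and lines are means. The ligand sum, the GREM1 ratio and the ID4 share are higher in both siUPF1 libraries, and the sum of the 4 ID genes overlaps between the groups at 174 and 171 CPM with siUPF1 and 177 and 171 CPM with siLuc. Per kb, the unit of the ligand sum, the ID sum (not drawn) was lower with siUPF1, at 117.2 and 117.5 against 135.3 and 126.7.

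The ID genes did not follow the ligands as a group. ID1, ID2 and ID3 were lower in both siUPF1 libraries than in both siLuc libraries, by small amounts, as 31.1% of all genes were, and ID4 was higher. Of these, ID1 fell and ID4 rose, and ID2 and ID3 did not pass. ID1 stood at 43.0 and 44.4 CPM in siUPF1 libraries and at 57.1 and 50.7 CPM in siLuc libraries (raw counts 430 and 498 against 505 and 508). ID1 fell, with a fold change of 0.813 (log2 fold change -0.30, SE 0.09, edgeR adjusted p = 0.00446). That call depended on control a, without which ID1 stood at -0.22 (edgeR adjusted p = 0.290), and DESeq2 gave an adjusted p of 0.116.

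ID2 had 32.5 and 32.1 CPM in siUPF1 libraries, against 37.6 and 37.3 CPM in siLuc libraries, the tightest replicates of the ID genes. Its log2 fold change of -0.21 (95% interval -0.42 to -0.01) had an unadjusted p of 0.0387 and did not pass (edgeR adjusted p = 0.114). ID3 had 47.6 and 48.3 CPM in siUPF1 libraries, against 56.7 and 52.4 CPM in siLuc libraries, and its log2 fold change of -0.18 (95% interval -0.35 to -0.01) did not pass either (edgeR adjusted p = 0.104). Summed, ID1 to ID3 came to 123 and 125 CPM in siUPF1 libraries and 151 and 140 CPM in siLuc libraries, a ratio of 0.85. This sum leaves out ID4 after its values were seen, so it is a description without a test.

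ID4 was the ID gene that rose. It stood at 50.9 and 46.4 CPM in siUPF1 libraries, against 25.5 and 30.7 CPM in siLuc libraries, with a log2 fold change of 0.79 (SE 0.10, edgeR adjusted p = 1.58e-13). The rise of ID4 was nearer in size to those of BMP2 and BMP4 than to any change of ID1, ID2 or ID3, and it passed in all 12 alternative settings. ID4 supplied 29.2% and 27.1% of all ID counts in siUPF1 libraries and 14.4% and 17.96% in siLuc libraries. The 4 ID genes together therefore summed to 174 and 171 CPM in siUPF1 libraries and to 177 and 171 CPM in siLuc libraries, a ratio of 0.992 (exact two-sided permutation p = 1). Per kilobase, where the short ID1 to ID3 transcripts weigh more, the sum was 117 and 118 with siUPF1 and 135 and 127 with siLuc, a ratio of 0.896.

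Set against the ligands, ID4 shared the direction of BMP2 and BMP4, and ID1 went the other way. The ratio of BMP4 to ID1 per kilobase was 0.367 and 0.321 in siUPF1 libraries and 0.138 and 0.161 in siLuc libraries, 2.31 times higher with siUPF1, since BMP4 rose and ID1 fell. The ratio of ID4 to ID1 per kilobase was also higher, at 0.317 and 0.281 in siUPF1 libraries and 0.120 and 0.163 in siLuc libraries, 2.12 times higher. Both ratios set a gene that rose over the gene that fell, so their direction follows from that choice and was not tested. BAMBI and SMAD6, the targets that also inhibit the pathway, did not pass in either direction.

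The order of levels per kilobase shows which genes changed rank. With siLuc, ID1 (52.0 ± 4.41 CPM per kb, SD, n = 2) and ID3 (44.2 ± 2.47) led, ID2 (27.5 ± 0.134) and BAMBI (27.4 ± 0.474) followed at levels that could not be separated, and SMAD6 (3.38 ± 0.379), GREM1 and BMP2 lay lowest and close together. With siUPF1, ID1 (42.2 ± 0.919 CPM per kb, SD, n = 2) and ID3 (38.8 ± 0.382) still led, then BAMBI (27.6 ± 2.42) and ID2 (23.8 ± 0.233). GREM1, BMP4, ID4 (12.6 ± 0.827 with siUPF1, 7.27 ± 0.965 with siLuc) and BMP7 came next, and SMAD6 (2.80 ± 0.70 with siUPF1) was lowest. BMP4, ID4 and BMP7 with siUPF1 lay within a few CPM per kb of one another, and GREM1's spread reached down to BMP4. The ranks of ID4 and GREM1 rest on the lengths behind the deposited values, 3863 and 4047 nt. Their matched GENCODE models have other lengths (2344 nt for ID4, 2648 and 14606 nt for GREM1), which could change these ranks.

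Read density moved with the size of a change in these libraries. ID1, ID2 and ID3 have short transcripts, and ID1 had 0.468 reads per transcript base ID3 0.414 and ID2 0.256, against 0.101 for ID4, whose transcript is longer (3863 nt), 0.112 for GREM1 and a median of 0.172 over all genes tested. No gene with at least 100 counts exceeded 1.12 reads per base. Of 1072 genes over 0.5 reads per base, 2.15% rose and 15.8% fell, with a median log2 fold change of -0.12, and of 4804 genes between 0.1 and 0.25 reads per base, 21.5% rose and 7.89% fell. Genes within 10% of ID1's density had a median log2 fold change of -0.07, with the 10th and 90th percentiles at -0.18 and 0.09, and genes within 10% of ID4's density had a median of 0.07. When the trend on read density was removed from each library, ID1 stood at -0.24 (edgeR adjusted p = 0.0338), ID2 at -0.25 and passed (edgeR adjusted p = 0.0299), ID3 at -0.15 (edgeR adjusted p = 0.110) and ID4 at 0.69 (edgeR adjusted p = 0.00184). Whether counts level off near 1 read per base was not tested. If they do, the fold changes and the levels per kilobase printed for dense genes such as ID1 and ID3 may be compressed. The summed ID levels, the ratios of BMP4 and ID4 to ID1 and the order of levels per kilobase use these values and share that limit.

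**Figure D3:**
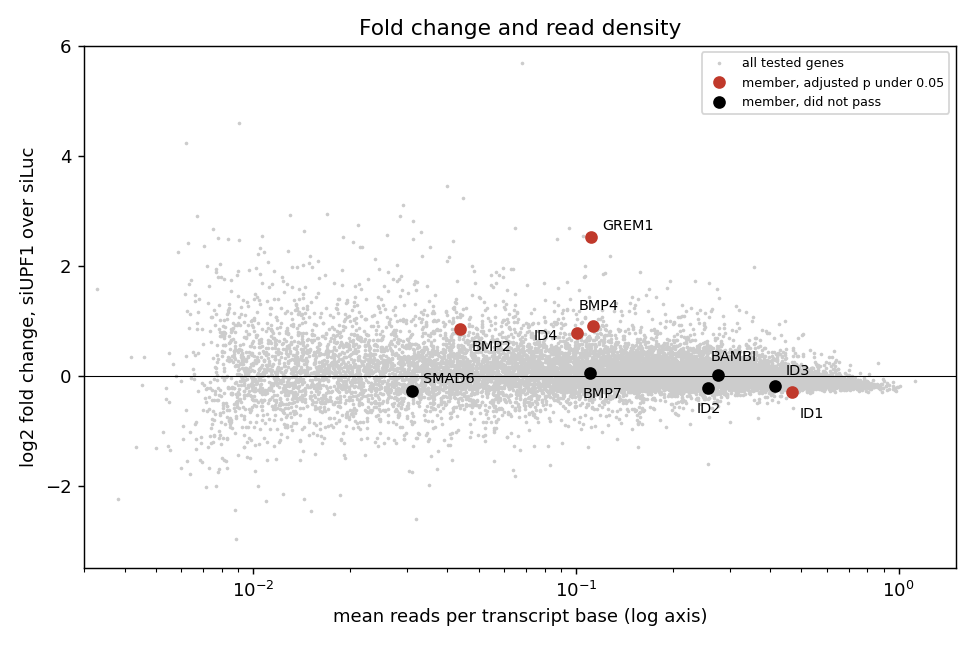
Log2 fold change of siUPF1 over siLuc against mean reads per transcript base (log axis) for all tested genes (grey), with the 10 BMP genes named (red where the adjusted p is under 0.05, black where not). ID1 and ID3 lie among the densest genes, where the grey points are narrow and sit just below 0, and GREM1, BMP4 and ID4 lie near 0.1 reads per base.

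To show what the ID genes share in their regulatory sequence, the 250 bases upstream of the annotated start are printed for each, together with those of GREM1, the gene that changed most. The sequences are RefSeq promoters on GRCh38.p14, read on the strand of the gene, and capitals mark TATAA, the core of a TATA box, or GGCGCC, a GC-rich element bound by BMP-activated SMADs, on either strand.

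GREM1, chr15:32717754-32718003, plus strand: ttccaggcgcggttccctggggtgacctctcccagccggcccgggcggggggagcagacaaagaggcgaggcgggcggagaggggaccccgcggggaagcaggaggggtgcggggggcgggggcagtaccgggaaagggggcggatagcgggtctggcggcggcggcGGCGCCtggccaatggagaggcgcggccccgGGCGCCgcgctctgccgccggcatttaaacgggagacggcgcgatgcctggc

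ID1, chr20:31605039-31605288, plus strand: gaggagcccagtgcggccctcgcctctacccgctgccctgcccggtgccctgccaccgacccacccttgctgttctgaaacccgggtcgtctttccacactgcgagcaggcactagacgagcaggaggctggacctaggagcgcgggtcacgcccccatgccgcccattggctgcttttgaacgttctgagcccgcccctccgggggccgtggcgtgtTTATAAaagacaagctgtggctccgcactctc

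ID2, chr2:8681806-8682055, plus strand: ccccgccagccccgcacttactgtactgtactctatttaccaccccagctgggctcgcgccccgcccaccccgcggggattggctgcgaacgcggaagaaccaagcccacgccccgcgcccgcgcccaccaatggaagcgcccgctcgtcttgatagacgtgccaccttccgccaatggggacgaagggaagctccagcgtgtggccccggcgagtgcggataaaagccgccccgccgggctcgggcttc

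ID3, chr1:23559502-23559751, minus strand: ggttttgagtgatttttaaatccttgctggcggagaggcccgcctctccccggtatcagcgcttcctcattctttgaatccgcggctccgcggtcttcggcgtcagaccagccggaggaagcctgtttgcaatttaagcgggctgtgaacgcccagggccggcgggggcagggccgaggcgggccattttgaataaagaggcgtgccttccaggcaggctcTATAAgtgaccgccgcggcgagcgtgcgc

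ID4, chr6:19837120-19837369, plus strand: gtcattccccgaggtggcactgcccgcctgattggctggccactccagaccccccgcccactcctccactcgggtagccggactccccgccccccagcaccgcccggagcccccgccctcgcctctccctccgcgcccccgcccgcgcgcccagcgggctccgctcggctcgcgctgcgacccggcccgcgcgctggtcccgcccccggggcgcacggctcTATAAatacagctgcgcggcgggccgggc

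TATAA was found in the promoters of ID1, ID3 and ID4, beginning 31 bases before the start in ID1 and 29 in ID3 and ID4, and not in that of ID2. In ID1 a match on the other strand overlaps it. BMP4 had TATAA on the other strand in 1 of its 3 promoters, and the other promoters matched had none. Of 16279 promoters of tested genes, 11.5% held TATAA in the same window. GGCGCC was found in 0 of the 4 ID promoters, 2 times in the printed 1 of 2 GREM1 promoters, 3 times in that of BAMBI and 1 time in 1 of the BMP4 promoters, beside 24.0% of promoters of tested genes. GTCT, a short SMAD-binding sequence that can share an end base with TATAA but not with GGCGCC, was found in each of the 4 ID promoters and in 75.1% of promoters of tested genes. Promoter entries were matched for 8 of the 10 genes, BMP2 and BMP7 being without one. Elements farther upstream were not searched.

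Features that can make a transcript a target of UPF1 were read from GENCODE release 29 models matched by RefSeq accession. The classic feature is an exon junction more than about 50 nt downstream of the stop codon, which 5.0% of 13726 matched tested genes had, and of the 686 genes with it 22.4% rose, against 16.2% of those without it. Of the 10 BMP genes only SMAD6 had one, in a noncoding RefSeq model that GENCODE classes as nonsense-mediated decay, with the junction 67 nt after the stop, and SMAD6 did not rise. ID2, ID3 and ID4 share a gene structure in which the last intron lies just past the stop codon, by 7, 25 and 14 nt, all under that distance, and ID1 has no junction after its stop. The 4 genes that rose therefore had no junction past that distance in the matched models.

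Upstream AUG triplets in the 5' untranslated region, another feature tied to NMD, were present in 7 of the 10 genes, beside 61.2% of matched tested genes. BMP2 had 8, BMP4 had 3, SMAD6 had 11, BAMBI had 2, and BMP7 and ID3 had 1 each, while ID1, ID2 and ID4 had 0. GREM1 had 1 in its longer model and 0 in the other. Genes that rose and genes that did not were thus found on both sides of this feature. The longer GREM1 model carries a 3' untranslated region of 13862 nt, beside a median of 1229.5 nt, although the length behind the deposited GREM1 values was 4047 nt.

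The wider pathway was read from a list of 73 other gene symbols, of which 48 had a row and were tested and the other 25 were not analysed here (HFE2, tested, and HJV are symbols of the same gene). Of the 48, 11 rose, 11 fell and 26 did not pass (edgeR), that is 22.9% each way beside 16.8% rising and 9.14% falling among all genes tested. Their median log2 fold change was -0.05. The groups by role hold 12 tested genes at most, so their counts are given as descriptions, to be read against those shares. Of these 22 calls, 11 held under every alternative setting in which the gene was tested and 11 were lost under at least 1. DESeq2 called 6 of the list up and 6 down, where it called 8.19% of all genes up and 2.99% down.

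**Figure D4:**
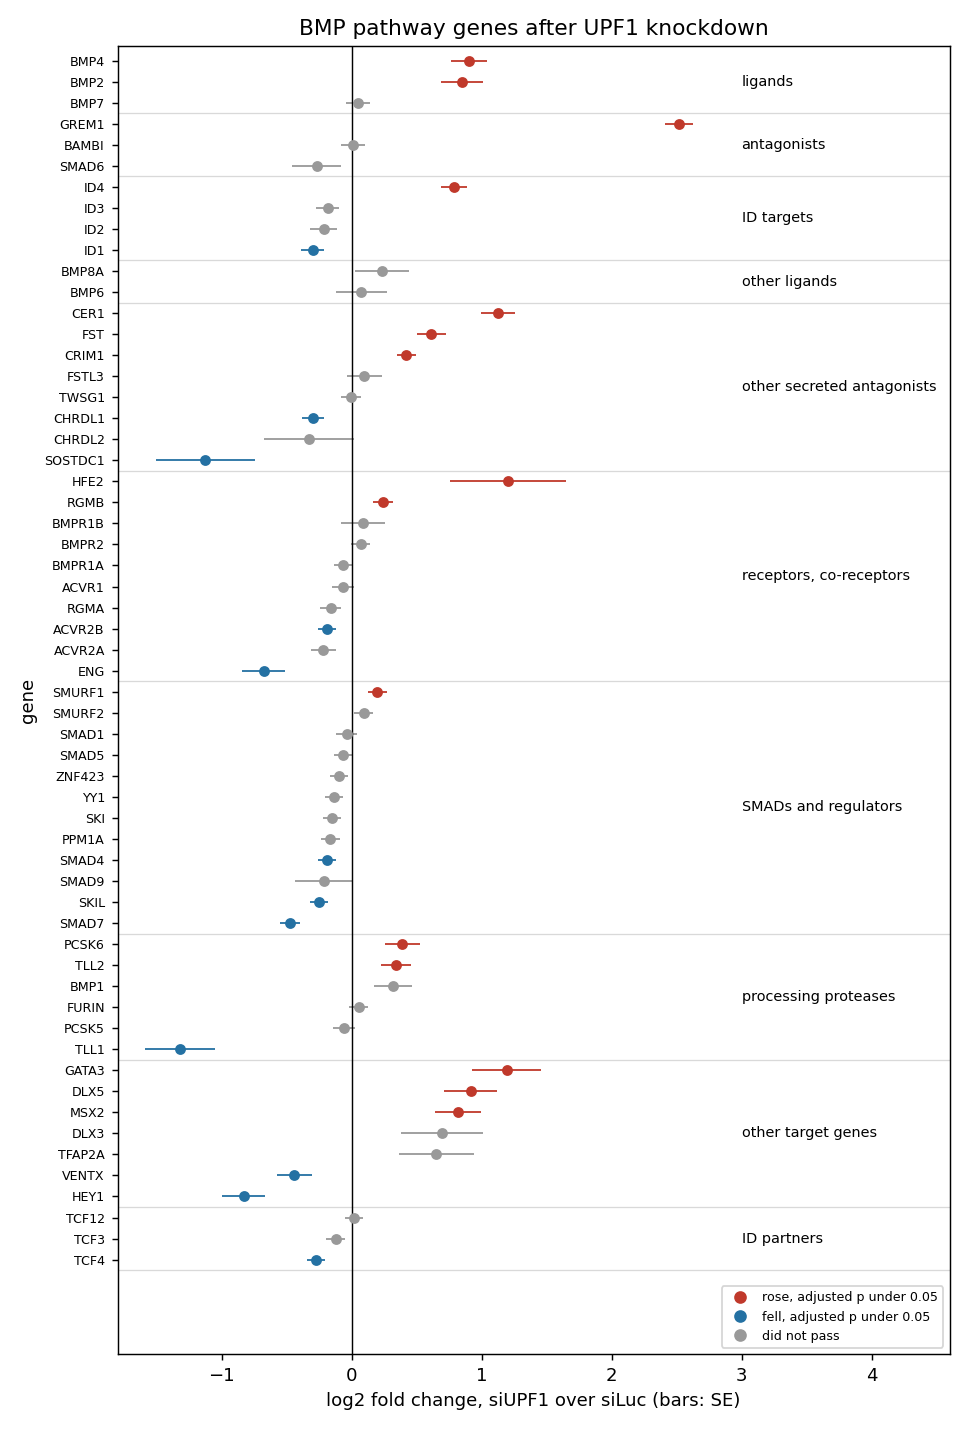
Log2 fold change of siUPF1 over siLuc (points) with SE (bars) for the 10 BMP genes and 48 other pathway genes, grouped by role and coloured by call. GREM1 at 2.52 lies farthest to the right, BMPR1A, BMPR2, ACVR1, SMAD1 and SMAD5 sit near 0, and co-receptors, secreted antagonists and target genes spread to both sides.

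Genes listed as secreted antagonists, other than GREM1, went both ways, with 3 rising and 2 falling of 8 tested. CER1 (cerberus, which also binds Nodal) had 35.2 and 25.9 CPM in siUPF1 libraries, against 14.1 and 13.8 CPM in siLuc libraries, a log2 fold change of 1.13 (SE 0.13). FST (follistatin, which mainly binds activins) rose by 0.61 (SE 0.11), and CRIM1, a membrane protein with chordin-like repeats, by 0.42 (SE 0.07). The highest adjusted p of these 3 over 12 alternatives was 0.00533 (edgeR). CHRDL1 (chordin-like 1) stood at -0.29 (SE 0.08), but without control b its adjusted p was 0.190 (edgeR). SOSTDC1, at about 1 CPM with siUPF1, stood at -1.12 (SE 0.38). It lost its call without control a (-1.14), control b (-1.12) or siUPF1 replicate 2 (-0.849). The other ligands tested, BMP6 (8.04 ± 1.61 CPM with siUPF1, 7.63 ± 1.20 with siLuc, SD, n = 2 each) and BMP8A (7.22 ± 1.01 with siUPF1, 6.17 ± 0.549 with siLuc), did not pass, and reads of BMP8A may be shared with its near-identical copy BMP8B.

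Of 10 receptor and co-receptor genes tested, 2 rose, 2 fell and 6 did not pass. The type I receptors BMPR1A (117.7 ± 5.78 CPM with siUPF1, 122.8 ± 2.14 with siLuc, SD, n = 2 each) and ACVR1 and the type II receptor BMPR2 (110.7 ± 2.39 with siUPF1, 105.4 ± 4.58 with siLuc) did not pass, and their 95% intervals lay within -0.23 and 0.21 on the log2 scale. The co-receptor gene ENG (endoglin) fell, at 8.90 and 10.9 CPM in siUPF1 libraries against 16.6 and 15.2 CPM in siLuc libraries (log2 fold change -0.68, SE 0.16). ACVR2B (-0.19, SE 0.07) fell, and the co-receptor genes RGMB (0.24, SE 0.08) and HFE2 (hemojuvelin; 1.20, SE 0.45, at under 2 CPM) rose. These 3 calls were fragile and were lost without control a. The log2 fold changes were then -0.205 for ACVR2B, 0.152 for RGMB and 1.4 for HFE2. Without control b the calls of ACVR2B (-0.18) and HFE2 (0.997) were lost. In both fits fewer genes were called over all genes tested as well. HFE2 also lost its call without siUPF1 replicate 1 or 2 (edgeR adjusted p = 0.0861 and 0.107), and ACVR2B without siUPF1 replicate 1 (edgeR adjusted p = 0.140).

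Among 12 SMADs and regulators, 1 rose, 3 fell and 8 did not pass. SMAD7, the inhibitory SMAD that acts on both the TGF-beta and BMP branches, had 61.2 and 65.0 CPM in siUPF1 libraries, against 91.4 and 84.4 CPM in siLuc libraries, and fell by 0.47 on the log2 scale (SE 0.08, edgeR adjusted p = 2.71e-08). The signal-carrying SMAD1 (-0.04, 95% interval -0.20 to 0.12) and SMAD5 (-0.06, -0.20 to 0.08) did not pass, nor did SMAD9 (-0.22, -0.64 to 0.21). SKIL, a SMAD corepressor gene, stood at -0.25 (SE 0.07), the shared partner SMAD4 at -0.19 (SE 0.07) and SMURF1, a ubiquitin ligase for BMP SMADs, at 0.20 (SE 0.07), all called. Without control a these 3 calls were lost, at log2 fold changes of -0.204, -0.216 and 0.218. Without control b SMAD4 (-0.168) and SMURF1 (0.168) lost theirs. SMAD4 also lost its call without siUPF1 replicate 1 (edgeR adjusted p = 0.0715).

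Of 6 genes for proteases that process BMPs or free them from antagonists, 2 rose, 1 fell and 3 did not pass. TLL1 (tolloid-like 1) fell, at 2.10 and 2.14 CPM in siUPF1 libraries against 5.88 and 4.79 CPM in siLuc libraries (log2 fold change -1.32, SE 0.27). TLL2 (0.34, SE 0.12) and the proprotein convertase gene PCSK6 (0.39, SE 0.13) were called up. Both lost the call without control a (0.307 and 0.287), control b (0.371 and 0.499) or siUPF1 replicate 2 (0.195 and 0.22). BMP1 (0.32, SE 0.15), a tolloid protease despite its name, did not pass.

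Of 7 other known BMP target genes tested, 3 rose, 2 fell and 2 did not pass. Those 2, DLX3 (log2 fold change 0.70, edgeR adjusted p = 0.0868) and TFAP2A (0.65, edgeR adjusted p = 0.0776), were higher in both siUPF1 libraries. Their means with siUPF1 were only 3.0 and 3.7 CPM. Thus 5 of the 7 lay wholly higher and 2 wholly lower with siUPF1, beside 32.3% and 31.1% of all genes. The homeobox gene MSX2 had 15.0 and 13.5 CPM in siUPF1 libraries, against 7.47 and 8.58 CPM in siLuc libraries (log2 fold change 0.82, SE 0.17). DLX5, another homeobox gene, rose by 0.92 (SE 0.20), and GATA3, a factor of trophoblast and amnion, rose by 1.19 (SE 0.26) at 6.20 and 5.26 CPM in siUPF1 libraries against 2.60 and 2.39 CPM in siLuc libraries. HEY1, a target shared with Notch, had 8.30 and 9.80 CPM in siUPF1 libraries, against 16.0 and 16.4 CPM in siLuc libraries (log2 fold change -0.83, SE 0.17). VENTX (-0.44, SE 0.13) was called down but lost its call without control a (-0.474), control b (-0.411) or siUPF1 replicate 1 (-0.333). The risers MSX2, DLX5 and GATA3 had changes of about the size of BMP4's, as ID4 did, while HEY1, VENTX and SMAD7 shared their direction with ID1. These genes were sorted by direction after their values were seen, so the sorting is a description without a test.

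Markers of amnion and trophoblast, fates that BMP4 treatment is known to induce in these cells, are partly the same genes. Of 10 on the list, 5 were tested (CGA, GATA3, TFAP2A, KRT7 and GABRP), with 2 rising and none falling. Their sum was between 32.6 and 35.1 CPM in siUPF1 libraries and between 27.5 and 30.2 CPM in siLuc libraries. GATA3 and TFAP2A, also among the target genes above, averaged 5.7 and 3.7 CPM with siUPF1 against 2.5 and 2.3 with siLuc. The higher sum therefore repeats, in part, the result for those targets. The mesoderm marker MIXL1, 1 of 5 listed and the only 1 tested, was between 2.90 and 3.21 CPM in siUPF1 libraries and between 4.86 and 5.89 CPM in siLuc libraries, and fell. Of 3 endoderm markers FOXA2 fell and CER1 rose, with a sum of 26.5 to 35.8 CPM in siUPF1 libraries and 17.9 to 19.1 CPM in siLuc libraries. The neural markers PAX6 and SOX1 summed to 10.1 to 10.6 CPM in siUPF1 libraries and 10.1 to 10.8 CPM in siLuc libraries, neither called. The part of any such cells in the changes of the BMP genes was not tested.

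Of the 3 E protein genes, whose products the ID proteins bind, 1 fell and the others did not pass. TCF4 had 168.6 and 169.7 CPM in siUPF1 libraries, against 203.1 and 205.3 CPM in siLuc libraries, and fell (log2 fold change -0.27, SE 0.07, edgeR adjusted p = 0.00102). TCF3 (-0.12, 95% interval -0.26 to 0.02) and TCF12 (0.02, -0.12 to 0.15) did not pass.

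Genes whose levels across the 4 libraries lay nearest to those of GREM1, by Euclidean distance of centred log2 CPM among 13633 genes with a mean of at least 5 CPM, were COL12A1 (distance 0.154), MYOCD (0.169) and TMPRSS13 (0.202), with log2 fold changes of 2.49, 2.46 and 2.56. Nearest to BMP4 were ABCA5 (0.0342), CDHR1 (0.0384) and PALLD (0.0387), and nearest to ID1 were MYCN (0.0102), SIPA1 (0.0207) and ADAMTSL2 (0.0303). Over 4 libraries such a distance reflects mainly the group difference and the split within each group.

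**Figure D5:**
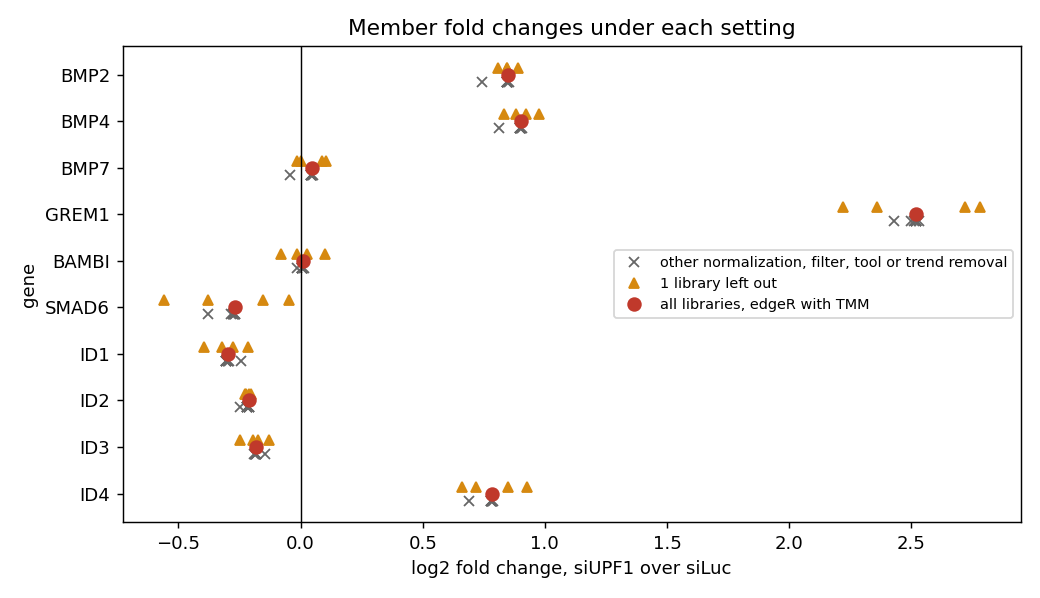
Log2 fold change of siUPF1 over siLuc for each of the 10 genes with all libraries (circles), with 1 library left out (triangles) and under other normalizations, filters, tools or trend removal (crosses). BMP2, BMP4, GREM1 and ID4 stay between 0.66 and 2.78, ID1, ID2, ID3 and SMAD6 stay below 0, and BMP7 and BAMBI fall on both sides of 0.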

How the data were processed

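Total RNA libraries of H9 cells were analysed from 1 table with a row per gene and its RefSeq transcripts. The authors' count columns hold raw whole-number counts. Deposited RPKM values stand beside them, and those of the siUPF1 libraries gave the transcript length behind each gene (counts over RPKM and library total). For a gene with several transcripts that length can differ between libraries, and the mean was used. Another 2 columns, of control RPKM, match no library by name and were left aside. STAR, DESeq2 and the build hg19 are named in the submitters' processing notes, without versions or roles; strand use and the handling of repeated or multimapping reads are not given in the sources used here. In GENCODE 29, 4 of the 10 genes (BMP7, GREM1, ID2 and ID4) are overlapped by a gene on the opposite strand, so their counts may include its reads, and an intronic gene lies on SMAD6's own strand.

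Libraries were grouped by label. They differed by more than sampling noise within groups (chi-square per degree of freedom 2.85 for siUPF1 and 1.70 for siLuc), so none was taken as a copy. No batch is labelled. The test was edgeR 4.0.16 in R 4.3.3 (glmQLFit, glmQLFTest) with TMM scaling and filterByExpr, which left out 385 genes. The biological coefficient of variation was 4.47%, and the fit's prior degrees of freedom were infinite, so that all genes shared 1 trend of spread. The SE is the log2 fold change over the square root of F. On simulated data for siUPF1 against siLuc with 15496 genes, the test recovered 92% of 2-fold changes and 78% of 1.41-fold changes with 9 false calls, under the spread the test itself assumes. Alternatives were DESeq2 1.42.0, limma 3.58.1 (voom), scaling by RLE or by library size only, testing without the filter or only genes reaching 5 CPM in 2 libraries, calling at 0.1, leaving out each library, and removal of the trend on read density (loess, span 0.3). Named genes were all 10 members, and of each other list the 3 with the smallest p and every gene that passed, and the 3 genes nearest in pattern to GREM1, BMP4 and ID1. The members and lists were chosen with earlier results of these data known. Promoters were those of RefSeq on GRCh38.p14; only names and features, and no hg19 coordinates, were set beside the counts.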

Additional observations from a re-analysis of the deposited data

How the results depend on the processing

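With 2 libraries per group, the calls rest on a spread estimated across genes, and detection of changes as small as those of ID1 to ID3 was not simulated. The count of rising BMP genes was 4 under all 12 alternatives, with each of GREM1, BMP4, BMP2 and ID4 called in every one. The count of falling genes was 1 with all libraries, 0 with DESeq2 (1 at an unadjusted p under 0.05), 2 with the trend on read density removed (ID1 and ID2), and 0 to 2 when 1 library was left out. Of 120 values for the 10 genes, 111 kept direction and call, 2 lost the call (ID1), 2 gained one (ID2 and SMAD6) and 5 changed sign, none of them called. The sign changes were BMP7 at -0.0442 with the trend removed and -0.0161 to 0.104 with 1 library left out (lowest without siUPF1 replicate 2), and BAMBI at -0.0140 with the trend removed, -0.0148 without control b and -0.0784 to 0.10 over all libraries left out in turn (lowest without siUPF1 replicate 1). Outside the 10 genes, BMP6 stood at -0.0363 with the trend removed, -0.0715 without control a and -0.153 to 0.256 over all libraries left out (lowest without siUPF1 replicate 2), and TCF12 at -0.0191 (without control b) to 0.0513, with -0.0177 without siUPF1 replicate 1. Rising genes of the wider list numbered 6 with DESeq2, 7 with the trend removed and 6 to 11 with 1 library left out; falling genes numbered 6 with DESeq2 and 6 to 13 with 1 library left out. The cause of these differences was not tested. With the trend removed the prior degrees of freedom were 6.55 in place of infinite and the biological coefficient of variation 3.32% in place of 4.47%; adjusted p was larger for the 4 rising genes (up to 0.00460, for BMP2) and smaller for ID2. Over all genes, risers and fallers numbered 2169 and 2064 with the trend removed, beside 2613 and 1422, and 1444 and 552 without control a and 1583 and 610 without control b. The ratio of summed ID levels was 0.971 to 1.01 with 1 library left out, and that of GREM1 to ligands 3.30 to 4.74. No paired analysis was possible because both control columns carry the same name and so no replicate number. Where 1 library is dropped, the remaining library of that group borrows its spread from the other group.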
